A study of Mus musculus with 12 samples.

Results

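The comparison described here is that of lineage-negative mouse bone marrow cells (LinNeg) from libraries labelled U2af1KO with those labelled WT, gene by gene. Its members are the 24537 gene rows of the authors' deposited LinNeg table, out of 49074 gene rows in the deposited tables of both populations studied, and 11608 of them had a deposited mean of at least 100 normalized counts and are described below. The 6 libraries of the comparison, 3 with each label, were total RNA of C57BL/6 bone marrow, source name BM Lin- Cells, out of 12 in the series. Marrow was depleted of lineage-positive cells on magnetic columns, the rest was flow-sorted, ribosomal RNA was removed, and libraries were built with a NEBNext Ultra II kit. The other 6 libraries were of LSK cells, the Sca-1 and c-Kit positive part of the lineage-negative fraction where stem cells lie, with the same 2 genotype labels and the source name BMT LSK Cells, in which BMT is not spelled out. The deleted part of U2af1, the promoter or Cre that drove a deletion, the age and sex of the mice and whether replicates were separate animals were not given in the sources used here. Adjusted p-values therefore reflect only how far these libraries varied, and that variation may be technical.

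U2af1 is the small subunit of U2AF, the dimer that marks the end of an intron: its large partner U2af2 binds the polypyrimidine tract, U2af1 binds the AG at the 3' splice site, and together they help bring the U2 particle to the branch site. Lineage-negative marrow is a mixture of stem cells and of committed progenitors of red cells, monocytes, dendritic cells, granulocytes, megakaryocytes and lymphocytes. Red cell progenitors are driven by Gata1 and Klf1 and by erythropoietin, and they build heme and a spectrin membrane skeleton. Monocyte and granulocyte progenitors are driven by PU.1 (Spi1), Cebpa and Irf8. In bulk RNA, fewer cells of a type and less RNA per cell cannot be told apart.

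Each value below is the authors' own: a mean of normalized counts over the 6 libraries, and a log2 fold change of KO-labelled over WT-labelled libraries with its standard error (SE). Values for single libraries are not in this table, so the spread of each gene is known only through its SE. Where levels under each label are given, they are implied by the deposited mean and fold change with 3 libraries on each side. A number standing alone beside a gene's name is its log2 fold change. A gene is called higher or lower when the authors' adjusted p is below 0.05. The targeted gene itself did not go down: in the authors' deposited table U2af1 had an implied level of 2037 normalized counts under the WT label and 3205 under the KO label (log2 fold change 0.65, SE 0.19, adjusted p = 0.00293). A count over the whole gene does not check a deletion of part of it, and every direction below rests on the libraries' labels.

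Some transcripts had SEs far above the rest. The female-specific RNA Xist had a deposited log2 fold change of 10.02 with an SE of 1.81, and the Y-linked genes Kdm5d, Eif2s3y, Ddx3y and Uty lay between -0.91 (Kdm5d) and -0.68 (Uty) with SEs of up to 1.99. All 11 transcripts listed for the seminal vesicle, an organ outside the marrow, were called higher, with log2 fold changes from 6.90 (Spink1) to 9.93 (Spinkl) and SEs of up to 2.12 (Spink1). Their summed implied level was 0.758% of all gene counts under the KO label and 0.00111% under the WT label. SEs above 1 were found for 110 of the 11597 genes with an adjusted p, against a median SE of 0.21, and 73 genes called higher and 5 called lower were among them. The part of these libraries in the other results was not tested. With genes of SE up to 0.5 only, 5663 were called, 2616 higher and 3047 lower.

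Over all genes, the comparison split the transcriptome. Of 11597 genes that reached the minimum mean and had an adjusted p, 6003 were called (51.8%), 2893 higher (24.9%) and 3110 lower (26.8%). Of these, 1515 rose and 1443 fell by 2-fold or more, 184 rose and 114 fell by 8-fold or more, and 53 rose and 18 fell by 64-fold or more. With genes of SE up to 0.5 only, 1238 rose and 1380 fell by 2-fold or more, so that the order of the directions turned. For 15 called genes the implied level under a label was below 1, and their fold is not a measured ratio. The order of all calls turned too when genes of lower mean were let in: 3781 were higher and 3307 lower with no minimum mean, and 3237 and 3199 at a mean of at least 50. The median log2 fold change of all tested genes was -0.02. Because a list of genes taken at random would have many calls, each count below is to be read against these shares. The lists were chosen with earlier results of these data known, so a share above these is a description and no test of a list. Counts by level were uneven: 27.3% of genes with means of 100 to 1000 were higher and 18.9% lower, while of 456 genes with means above 10000 only 21.7% were higher and 37.3% lower. A further 11 genes with a mean of at least 100 had no adjusted p, among them Cd3d, Cd3e, Lef1, Rag1 and Themis of T and lymphoid cells and the granule gene Ltf.

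**Figure D1:**
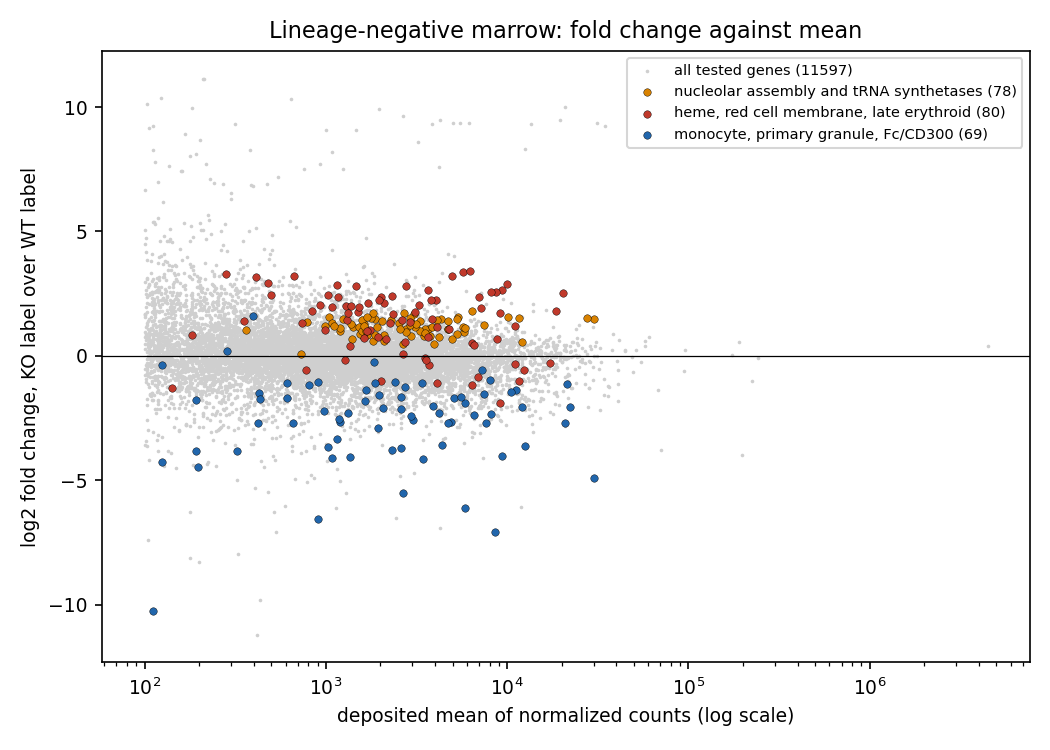
Deposited log2 fold change (KO label over WT label, vertical axis) against the deposited mean of normalized counts (log axis) for 11597 genes of lineage-negative marrow. Points in red are 80 genes of heme synthesis, the red cell membrane and late erythroid cells, in blue 69 monocyte, primary granule and Fc or CD300 receptor genes, and in orange 78 nucleolar and tRNA synthetase genes; blue points lie mostly below 0, and red and orange points mostly above it.

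The promoters shown are those of the 3 genes with the largest Wald statistics among the called higher members of the erythroid lists (transcription factors, heme, membrane) and the 3 among the called lower members of the myeloid lists (transcription factors, monocyte genes, primary granules). Motifs of Gata1, a factor of red cells, and of PU.1, a factor of myeloid cells, were looked for because these factors moved in opposite directions. Whether either factor acts on these 6 genes was not tested. Each run is the RefSeq sequence (build GRCm38.p6) just upstream of the gene, ending before its annotated start, 5' to 3' on the gene's strand. Capitals mark the GATA motif AGATAA or TGATAA and the PU.1 motif GAGGAAGT, both searched in all 6 windows on both strands, so that TTATCA is a TGATAA on the other strand.
Rhag (chr17:40810899-40811125, plus strand): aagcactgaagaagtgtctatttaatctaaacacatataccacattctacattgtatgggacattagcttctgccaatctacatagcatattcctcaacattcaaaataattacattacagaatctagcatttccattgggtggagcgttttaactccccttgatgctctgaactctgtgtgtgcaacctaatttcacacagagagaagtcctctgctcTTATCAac
Add2 (chr6:86028431-86028680, plus strand): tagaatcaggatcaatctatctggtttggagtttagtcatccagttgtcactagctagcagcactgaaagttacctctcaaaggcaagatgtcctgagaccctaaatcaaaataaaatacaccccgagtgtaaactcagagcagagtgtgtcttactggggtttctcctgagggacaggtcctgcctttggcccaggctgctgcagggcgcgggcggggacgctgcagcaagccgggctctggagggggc
Klf1 (chr8:84901732-84901927, plus strand): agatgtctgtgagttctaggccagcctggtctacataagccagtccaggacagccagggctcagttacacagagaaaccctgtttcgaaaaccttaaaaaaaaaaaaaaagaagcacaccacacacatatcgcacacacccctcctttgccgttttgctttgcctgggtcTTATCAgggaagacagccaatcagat
Mpeg1 (chr19:12460520-12460769, plus strand): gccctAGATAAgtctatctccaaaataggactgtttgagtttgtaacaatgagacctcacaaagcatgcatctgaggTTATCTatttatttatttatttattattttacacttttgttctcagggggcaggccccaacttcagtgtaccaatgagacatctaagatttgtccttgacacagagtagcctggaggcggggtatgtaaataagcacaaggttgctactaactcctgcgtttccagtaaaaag
F13a1 (chr13:37050245-37050494, minus strand): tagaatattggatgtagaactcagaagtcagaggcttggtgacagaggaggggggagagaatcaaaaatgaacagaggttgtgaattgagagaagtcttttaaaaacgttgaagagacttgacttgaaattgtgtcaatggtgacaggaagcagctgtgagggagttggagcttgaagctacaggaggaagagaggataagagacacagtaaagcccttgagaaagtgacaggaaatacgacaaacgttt
Irf8 (chr8:120736108-120736357, plus strand): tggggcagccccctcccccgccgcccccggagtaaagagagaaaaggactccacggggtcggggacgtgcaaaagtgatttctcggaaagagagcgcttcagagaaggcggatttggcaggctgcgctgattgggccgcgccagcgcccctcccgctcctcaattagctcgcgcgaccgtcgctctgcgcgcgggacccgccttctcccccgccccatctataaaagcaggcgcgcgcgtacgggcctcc
Rhag and Klf1 each held 1 GATA motif in these windows, starting 8 and 26 bases before the annotated start, and Add2 held none. The window of Mpeg1, a gene called lower, held 2, starting 245 and 173 bases before its start, and F13a1 and Irf8 held none. None of the 6 windows held the PU.1 motif, which says only that these letters are not there.

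Over the 250 bases before each start, the GATA motif was found in 15 of 48 promoters of erythroid list genes called higher (31.2%), against 9.43% of 11558 promoters of all tested genes and 16.6% of all 32851 promoters in the RefSeq table. Among promoters of all genes called higher it was in 11.1%, and among those of genes called lower in 9.23%. The PU.1 motif was in 4 of 62 promoters of myeloid list genes called lower (6.45%), in 2.54% of all tested genes, and in 0 of the 48 erythroid promoters. It was in 3.08% of promoters of all genes called lower and in 2.13% of those called higher. The CACCC box CCACACCC, to which Klf1 and related factors bind, was in 2.84% of promoters of genes called higher, 4.03% of those called lower and 3.47% of all tested. Its GC-rich relative CCGCCC was in 55.4%, 58.8% and 57.3%. These shares are a description: promoters of a gene with several starts overlap, and a match is not a binding site. The 48 erythroid promoters belong to 36 of 47 genes and the 62 myeloid promoters to 50 of 60. No share was counted for the other members of these lists, so the list shares cannot be tied to the direction of change.

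**Figure D2:**
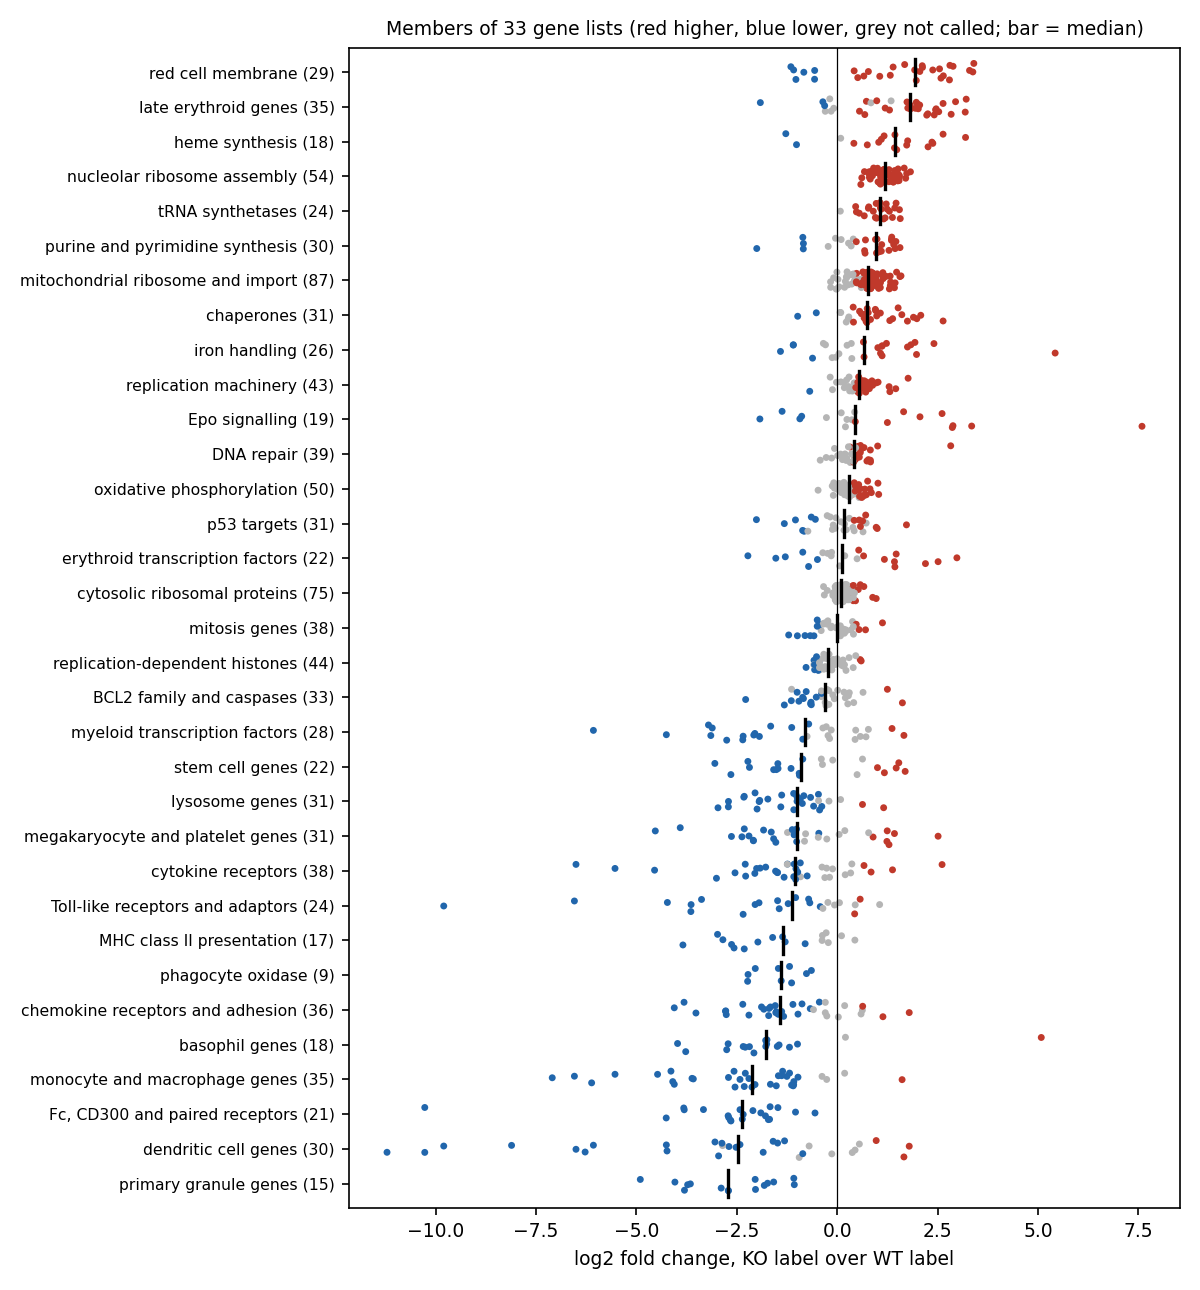
Deposited log2 fold changes (KO label over WT label, horizontal axis) of the tested members of 33 gene lists, ordered by their median (black bar); red points were called higher, blue lower and grey not called. The lists drawn were picked by hand from 56, and their medians run from -2.71 for primary granule genes to 1.93 for the red cell membrane. Lists left out include the seminal vesicle transcripts (median 9.36), T and NK cell genes (0.97) and mast cell genes (-0.97).

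Erythroid transcription factors did not move as a block. Of 22 tested, 9 were higher and 6 lower, with a median of 0.12. Klf1, which activates globin, heme and membrane genes, had an implied level of 945 under the WT label and 7446 under the KO label in the authors' deposited table (log2 fold change 2.98, SE 0.24, adjusted p = 1.21e-32). Zfpm1 (FOG1), the partner of Gata1, was at 2.51 (SE 0.23), Sox6, which aids late red cell maturation, at 2.20 (SE 0.23), and Gata1 itself at 1.42 (SE 0.20). Gfi1b (1.47), E2f4 (1.43) and Tal1 (1.17) were also called higher. Among those that fell, Runx1 was at -2.23 (SE 0.12), Nfe2 at -1.53 and the progenitor factor Myb at -1.29. The cofactor Lmo2 (0.49, adjusted p = 0.0833) and the globin repressor Bcl11a (-0.15) were not called.

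Erythropoietin signalling showed a higher receptor, higher feedback inhibitors and lower kinases. The receptor gene Epor was at 2.61 (SE 0.26) in the authors' deposited table, from an implied 373 to 2274 normalized counts. Known targets of STAT5 were among the higher genes: Cish, a feedback inhibitor of the receptor, was at 3.35 (SE 0.29), Socs1 at 2.88 (SE 0.39), Socs2 at 2.86 (SE 0.30) and the survival gene Bcl2l1 at 1.25 (SE 0.20). Podxl, a sialomucin induced in red cell progenitors under erythropoietin, was at 7.59 (SE 0.30), from an implied 43.7 to 8404. The signal carriers went the other way: Jak2, the kinase on the receptor, was at -1.37 (SE 0.14), Stat5b at -0.89 (SE 0.12) and the kinase Lyn at -1.93 (SE 0.14), while Stat5a (0.10) was not called. Of 19 tested genes of the list 9 were higher and 4 lower, with a median of 0.43.

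Most heme synthesis genes rose. Of 18 tested genes 15 were higher and 2 lower, with a median of 1.43. Genes for the first step moved in opposite directions: in the authors' deposited table the erythroid form Alas2 was at 3.19 (SE 0.36), while Alas1, the form of other tissues, was at -1.02 (SE 0.18). Cpox (2.63), which acts late in making the ring, and Fech (2.26), which inserts its iron, rose, as did the porphyrin carrier Abcb6 (1.75) and the heme binder Hebp1 (2.36). Hmox1, which degrades heme, was at -1.28 (SE 0.36).

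Of 26 iron genes 14 were higher and 4 lower (median 0.66). The transferrin receptor Tfrc had an implied level of 7215 under the WT label and 25702 under the KO label in the authors' deposited table (1.83, SE 0.17). The endosomal reductase Steap3 was at 2.41 (SE 0.24), the iron transporter Slc11a2 at 1.93 (SE 0.16) and mitoferrin Slc25a37 at 1.97 (SE 0.22). These act in the chain that takes iron from the cell surface to the mitochondrion. Erfe, the hormone by which red cell progenitors lower hepcidin, was at 5.42 (SE 0.30), from an implied 28.8 to 1238. Among ferritin subunits Fth1 rose (1.22, SE 0.15), whereas Ftl1 was at 0.24 (adjusted p = 0.27), and Ncoa4, which sends ferritin to lysosomes, fell (-1.10, SE 0.15).

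All 29 tested red cell membrane genes were called, 23 higher and 6 lower, with a median of 1.93. In the authors' deposited table the anion exchanger Slc4a1 was at 3.40 (SE 0.28), the skeleton protein Add2 at 3.38 (SE 0.26), the anchor Ank1 at 2.88 (SE 0.24), and the Rh-associated Rhag at 2.80 (SE 0.22). Dmtn (2.79) and the blood group protein Kel (2.12) rose too. Pairs of related members that moved apart were picked out here after their values were seen. Adducin 3 (Add3) was at -1.16 against 3.38 for Add2 and tropomodulin 3 (Tmod3) at -1.09 against 3.29 for Tmod1. The spectrin of other tissues, Sptan1, was at -0.83. The marker of self Cd47 was also lower, at -1.03 (SE 0.11).

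Genes of later red cell stages were higher in 26 and lower in 3 of 35 tested (median 1.82). Pklr, pyruvate kinase of red cells and liver, was at 3.21 (SE 0.23) in the authors' deposited table, the sphingosine kinase Sphk1 at 2.84 (SE 0.28), the carbonic anhydrase Car2 at 2.53 (SE 0.24) and Hemgn at 2.25 (SE 0.24). Alox15, a lipoxygenase of reticulocytes and eosinophils, was the main exception at -1.92 (SE 0.16). The mitophagy receptor Bnip3l (-0.09) and Gpx1 (-0.30) were not called. Globins cannot be followed: 8 of 10 globin genes are listed at a mean of 0, as are some genes that all cells use, and no globin gene reached a mean of 100.

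**Figure D3:**
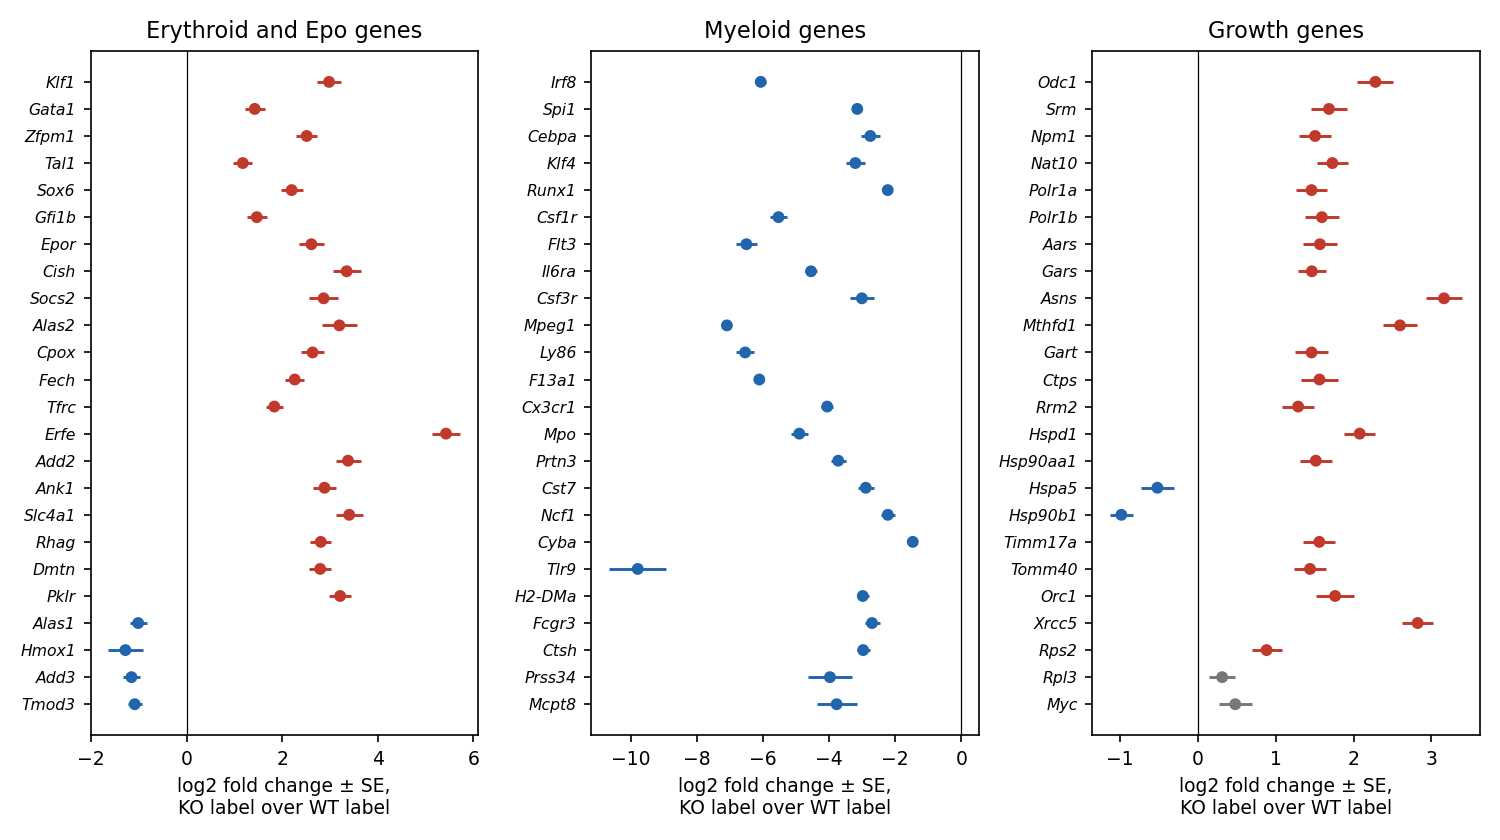
Deposited log2 fold changes with their SE (bars) for 24 genes each of the erythroid and erythropoietin lists, the myeloid lists and the growth lists; red points were called higher, blue lower and grey not called. In the myeloid panel all 24 lie below -1, and in the growth panel Hspa5 and Hsp90b1 are the 2 blue points. The genes of each panel were picked by hand, so a shared direction within a panel is not a result. Members such as Vcan and Irf4 (higher) and Adgre1 (not called) were left out of the myeloid panel. The lower genes Adssl1, Maf1 and Chac1 were left out of the growth panel.

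Myeloid transcription factors fell in 15 and rose in 2 of 28 tested genes (median -0.81). Irf8, the factor of monocyte and dendritic progenitors (chromosome 8, 120736358 to 120756694, plus strand, mm10), dropped in the authors' deposited table from an implied 23519 normalized counts under the WT label to 350 under the KO label (log2 fold change -6.07, SE 0.15, adjusted p listed as 0). Spi1, which encodes PU.1, was at -3.15 (SE 0.15), Klf4, which drives monocyte fate, at -3.21 (SE 0.30), and Cebpa, needed for granulocyte progenitors, at -2.75 (SE 0.30). Runx2 (-3.11), Hhex (-2.35) and Spib (-4.26) fell as well. Those that rose, Irf4 at 1.66 (SE 0.41) and Maf at 1.36 (SE 0.29), also act in lymphocytes. Id2 (0.58), Zbtb46 (0.44) and Irf7 (-0.36) were not called.

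Monocyte and macrophage genes fell in 31 of 35 and rose in 1, with a median of -2.12. In the authors' deposited table Mpeg1, a pore-forming protein of phagocytes, went from an implied 16935 to 124 normalized counts (-7.10, SE 0.14). The lipopolysaccharide co-receptor protein Ly86 was at -6.55 (SE 0.28), the clotting factor subunit F13a1 at -6.12 (SE 0.15), Csf1r, the receptor of macrophage colony-stimulating factor, at -5.53 (SE 0.24) and the chemokine receptor Cx3cr1 at -4.06 (SE 0.19). Lyz2, the lysozyme of phagocytes, was at -4.10 with the larger SE of 0.70. The proteoglycan gene Vcan alone rose (1.61, SE 0.36), and the macrophage markers Adgre1 (0.18, adjusted p = 0.759) and Mrc1 (-0.38) and the enzyme Gda (-0.26) were not called.

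Lists of antigen presentation and pathogen sensing also held more lower than higher genes. Among 30 dendritic cell genes 20 fell and 3 rose (median -2.47): Tlr9, a sensor of DNA in plasmacytoid cells, was at -9.80 (SE 0.87) in the authors' deposited table, Clec9a of cross-presenting cells at -6.28 (SE 0.37), and Wdfy4, needed for cross-presentation, at -2.87 (SE 0.15). Ccr9 (1.79) and Irf4 (1.66), both shared with lymphocytes, and Ckb (0.97) were higher. Class II presentation fell in 11 of 17 with none higher (median -1.36), and the peptide loaders H2-DMb1 (-3.84) and H2-DMa (-2.98) fell most firmly, while the invariant chain Cd74 (-0.28, SE 0.34) was not called. Toll-like receptors and adaptors fell in 16 and rose in 2 of 24 (median -1.13), with Ticam2 at -4.23, Cd180 at -3.65 and the trafficking protein Unc93b1 at -3.38. Their common adaptors Myd88 (-0.23) and Traf6 (-0.07) were not called. Of 20 genes of inflammasomes and cell-death effectors 11 fell and 1 rose (median -0.90): the pyrin gene Mefv was at -7.96 (SE 0.60) and the adaptor Card9 at -2.69, whereas the caspase Casp4 was at 1.62 (SE 0.41).

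Every tested gene of the primary granules and of the phagocyte oxidase was lower. The 15 primary granule genes fell with values from -4.90 to -1.07 and a median of -2.71. Mpo, myeloperoxidase, went from an implied 58450 to 1952 normalized counts in the authors' deposited table (-4.90, SE 0.25), the protease Prtn3 was at -3.73 (SE 0.23), haptoglobin Hp at -3.66 (SE 0.30) and the protease inhibitor Cst7 at -2.89 (SE 0.24). All 9 genes of the phagocyte oxidase and its regulators fell (median -1.40), among them Hvcn1, the proton channel that balances its charge (-2.23), the cytosolic subunit Ncf1 (-2.22), and the membrane subunit Cyba (-1.47). Genes of late neutrophils were mostly too low to test: 13 of 36 were, of which 7 fell and 1 rose. Among them Csf3r, the granulocyte colony-stimulating factor receptor, was at -3.01 (SE 0.36) and Pglyrp1 at -2.45 (SE 0.27). Ceacam10, the one called higher, was at 9.30 with an SE of 1.75, of the same size as those of the seminal vesicle transcripts.

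Receptors on the myeloid surface were lower too. All 21 tested Fc, CD300 and paired receptor genes were lower (median -2.37). The signal chain Fcer1g, shared by many Fc receptors, was at -2.66 (SE 0.18) in the authors' deposited table, Fcgr3 at -2.70 (SE 0.23), Cd300a at -3.33 (SE 0.28), and downstream the kinase Syk at -1.90 (SE 0.12) and the phosphatase Ptpn6 at -1.69 (SE 0.14). CD300 and Fc receptor genes have close copies, so their reads may be split. Lysosome genes fell in 26 of 31, by 2-fold or more in 17, and rose in 2, with the protease Ctsh at -2.97, the hexosaminidase subunit Hexa at -2.33 and Psap, the saposin precursor, at -2.05, while Ctsl (1.15) and Ctse (0.63) rose.

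Of 38 cytokine receptor genes tested, 24 fell and 4 rose (median -1.06). Flt3, the receptor of multipotent and dendritic progenitors, was at -6.51 (SE 0.33) in the authors' deposited table, from an implied 4842 to 53.3. Il6ra was at -4.55 (SE 0.19), Il3ra at -2.29 (SE 0.23) and Tnfrsf1a at -2.28 (SE 0.18). Csf2rb2 (-1.78) has a near-identical copy, and its value is uncertain. Epor (2.61), Il2rb of lymphocytes (1.38) and the interleukin 33 receptor Il1rl1 (0.67) were the higher ones named by the rule. Kit, the stem cell factor receptor, was at 0.36 (adjusted p = 0.0572). Chemokine receptors and adhesion genes fell in 25 and rose in 3 of 36 (median -1.43), among them S1pr3 (-3.82), Cd93 (-3.52), Pecam1 (-2.76) and the selectin ligand Selplg (-1.89). Itga4, an integrin of red cell and other progenitors, rose (0.63, SE 0.16), while Itgb1 (-0.30) was not called.

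The sorted fraction held strong basophil transcripts, which moved with the myeloid lists. The lineage antigens named here were low or split: Cd4, Cd8a, Cd5 and Ly6g had means of 0.78 to 37.6, while Itgam and Ptprc had means of 2587 and 8540. Of 11 listed antigens 5 were tested, with 2 higher and 2 lower and log2 fold changes from -3.60 to 2.89. Basophil genes fell in 16 and rose in 1 of 18 tested (median -1.78). Their summed implied level was 2.04% of all gene counts under the WT label and 0.243% under the KO label. A single gene, Prss34, made up 369786 of the 704570 summed counts under the WT label and 23485 of 79029 under the KO label. Prss34, a basophil protease and the gene with the fourth highest mean of the table, was at -3.98 (SE 0.67) in the authors' deposited table, from an implied 369786 to 23485 normalized counts; it and Mcpt8 (-3.77, SE 0.61) fall outside the naming rule and were chosen after their values were seen. The high-affinity IgE receptor subunits Ms4a2 (-2.72) and Fcer1a (-2.34), Cd200r3 (-2.08) and the histamine enzyme Hdc (-2.02) fell too. Several of these genes are also in the mast cell, Fc receptor or myeloid factor lists. The part of basophils in the falls of those lists was not tested.

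Of 19 mast cell genes tested, 10 fell and 5 rose. Proteases of connective tissue mast cells were far higher: Cma1 was at 7.53 (SE 0.35), Tpsb2 at 7.52 (SE 0.41) and Mcpt4 at 11.13 (SE 1.23) in the authors' deposited table, while the carboxypeptidase Cpa3 was at -2.82 (SE 0.22). Mitf (0.28) and Rab27b (0.05) were not called. Of 10 tested eosinophil genes 3 fell and 1 rose, and the granule proteins Prg2 (-1.52, SE 0.76) and Epx (-1.11, SE 0.90) were not called.

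Megakaryocyte and platelet genes fell in 17 and rose in 6 of 31 (median -1.01). Rasgrp2, which activates platelet integrins, was at -2.64 (SE 0.16) in the authors' deposited table, the cytoskeletal protein Plek at -2.09 (SE 0.20), the adenosine diphosphate receptor P2ry1 at -1.84 (SE 0.19) and the factor Fli1 at -1.58 (SE 0.18). Among the 6 that rose were Zfpm1 and Gata1, the factors shared with red cells, and the thrombin receptor F2r (0.89). The integrin subunit Itgb3 (-0.26) was not called.

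Stem and progenitor markers were more often lower than higher. Of 22 stem cell genes 12 fell and 5 rose (median -0.90). Angpt1 was at -3.05 (SE 0.17) in the authors' deposited table, Erg at -2.65 (SE 0.28), Gata2 at -2.19 (SE 0.28) and Etv6 at -1.48 (SE 0.16). Mllt3, a factor that sustains stem cells and is also high in red cell progenitors, rose (1.53, SE 0.19), as did Cdkn1c, a cell cycle inhibitor of quiescent stem cells (1.69, SE 0.49). Bmi1 (-0.11) and Hlf (0.63, SE 0.36) were not called. Of 11 progenitor markers 8 fell and 2 rose (median -1.97): Cd48 was at -1.97 and Spn (CD43) at -1.68, while Ly6a (Sca-1) rose 4.60-fold (2.20, SE 0.28) and Eng was at 0.66.

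Lymphoid genes had no common direction. Of 21 lymphoid priming genes 8 fell and 5 rose (median -0.15), with Sox4 at -2.81 (SE 0.33), Mef2c at -2.32 (SE 0.26) and Notch1 at -1.33 (SE 0.28) in the authors' deposited table, and the Notch target Hes1 at 2.07 (SE 0.33) and Bcl11b at 2.38 (SE 0.70). Dntt was at -1.54 with an SE of 1.87, and Il7r at -0.12 with an SE of 0.50. Of 12 tested B cell genes 6 fell and 2 rose, among them Cd22 at -5.01 (SE 0.32) and the coactivator Pou2af1 at 2.01 (SE 0.32). The summed implied level of all 26 listed B cell genes went the other way. It was 0.0668% of all gene counts under the WT label and 0.114% under the KO label. T and NK cell genes were higher in 12 and lower in 2 of 24 (median 0.97): Gata3 was at 2.21 (SE 0.27), the kinase Zap70 at 2.22 (SE 0.38), Ccl5 at 1.69 and the granzyme Gzmb at 1.56, and Nkg7, which is also in the primary granule list, at -1.82. Their summed implied level was 0.0889% of all gene counts under the WT label and 0.147% under the KO label. GIMAP GTPases, a family of lymphocyte survival proteins encoded side by side, rose in 4 and fell in 2 of 8, from Gimap3 at 3.35 (SE 0.59) to Gimap1 at -0.83 (SE 0.21). Neighbours in this cluster resemble each other, so reads may be shared.

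Ribosome assembly was higher throughout. All 54 tested nucleolar genes were called higher, with values between 0.59 and 1.82 and a median of 1.18. In the authors' deposited table the acetyltransferase of ribosomal RNA Nat10 was at 1.73 (SE 0.20), Mrto4 at 1.70 (SE 0.23), Mybbp1a at 1.55 (SE 0.20), nucleophosmin Npm1 at 1.51 (SE 0.21) and Wdr75 of the small subunit processome at 1.39 (SE 0.19). RNA polymerase I and III genes rose in 18 (11 at an adjusted p below 0.01) and fell in 2 of 32 (median 0.48): the large polymerase I subunits Polr1b (1.59) and Polr1a (1.46) and its initiation factor Rrn3 (1.06) rose, while Maf1, the repressor of polymerase III, fell (-0.75, SE 0.13). Ribosomal proteins themselves did not follow. Of 75 cytosolic ribosomal protein genes 10 were higher (3 at an adjusted p below 0.01) and none lower (median 0.09). Rps27l (0.97), a p53 target, and Rps2 (0.88) rose most firmly, and Rpsa (0.20), Rpl4 (0.22) and Rpl3 (0.31) were not called. Many of these genes have processed copies in the genome, so their counts are less certain.

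The MYC network and polyamine genes had no common direction, with 5 higher and 8 lower of 20 (median -0.13). Myc was at 0.48 (SE 0.21, adjusted p = 0.0559) in the authors' deposited table and was not called. The partners that compete with it for Max fell, with Mxd1 at -1.35 (SE 0.13), Mxd3 at -1.57 (SE 0.24) and Mnt at -0.69 (SE 0.16), and Mycl was at -2.30 (SE 0.46). Of the polyamine genes, ornithine decarboxylase Odc1 rose 4.86-fold (2.28, SE 0.23) and spermidine synthase Srm was at 1.68 (SE 0.23), while Sat1, which degrades polyamines, was at -1.05 (SE 0.21) and Oaz2, an inhibitor of Odc1, at -1.11 (SE 0.21).

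Of 24 tRNA synthetase genes 23 were higher (median 1.07), led by Gars at 1.46 (SE 0.18), Farsb at 1.37 (SE 0.18) and Aars at 1.57 (SE 0.22) in the authors' deposited table, and only the mitochondrial Fars2 (0.08) was not called. Mitochondrial ribosome and import genes rose in 63 of 87 with none lower (median 0.75), for example the translocase subunits Timm17a (1.56) and Tomm40 (1.44) and the ribosomal protein Mrpl12 (1.32), while Tomm34 (-0.16) and Mrpl24 (-0.09) were not called. Oxidative phosphorylation genes rose in 21 of 50, again with none lower, with a median of 0.30, and 10 were called higher at an adjusted p below 0.01. Cyc1 at 1.03 and Atp5g1 at 1.01 were at the top of the range. Cox4i1 (0.04) and Sdha (0.23) were not called.

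Enzymes that make nucleotides and one-carbon units were mostly higher. Purine and pyrimidine synthesis rose in 20 and fell in 4 of 30 (median 0.96): Ctps was at 1.56 (SE 0.23), the 3-step purine enzyme Gart at 1.46 (SE 0.21), and the ribonucleotide reductase subunit Rrm2 at 1.29 (SE 0.21) in the authors' deposited table. Of the 4 that fell, Adssl1 went from an implied 2749 to 685 normalized counts, Ctps2 was at -0.86 (SE 0.19) and Impdh1 at -0.85 (SE 0.15). Serine and one-carbon genes rose in 11 and fell in 3 of 22 (median 0.67). Asparagine synthetase Asns rose 8.96-fold (3.16, SE 0.23), and the folate enzymes Mthfd1 and Mthfd2 were at 2.60 (SE 0.22) and 1.90 (SE 0.23). Chac1, a target of the same Atf4 pathway as Asns, was at -1.16 (SE 0.29). Of 31 cholesterol and fatty acid genes 9 rose and 4 fell (median 0.19), with the epoxidase Sqle at 1.30 (SE 0.16).

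Of 31 chaperone genes tested, 24 rose and 2 fell (median 0.75). The mitochondrial chaperonin Hspd1 was at 2.08 (SE 0.20) in the authors' deposited table, its partner Hspe1 at 1.90 (SE 0.22) and mitochondrial Hspa9 at 1.38 (SE 0.20), and the cytosolic Hsph1 and Hsp90aa1 were at 1.75 (SE 0.20) and 1.52 (SE 0.21). The 2 that fell, Hsp90b1 at -0.99 (SE 0.15) and Hspa5 at -0.52 (SE 0.21), are chaperones of the endoplasmic reticulum. At an adjusted p below 0.01, 22 chaperone genes were higher and 1 lower. Hsf1, the heat shock factor, was at 0.09 and was not called.

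Genes of DNA synthesis rose while those of mitosis did not. Replication genes were higher in 28 and lower in 1 of 43 (median 0.55), led by the origin proteins Orc1 (1.76, SE 0.24) and Orc2 (1.46, SE 0.20) and the chromatin assembly factor Chaf1b (1.31, SE 0.19) in the authors' deposited table. Of 38 mitosis genes 4 rose and 8 fell (median -0.01): Mybl2 was at 1.13 (SE 0.22), and Kif23, a motor of cytokinesis, at -1.21 (SE 0.15) and the mitotic factor Foxm1 at -0.99 (SE 0.13), while Mki67 (0.21) was not called. Replication-dependent histones, which have near-identical copies and whose values are uncertain, rose in 2 and fell in 10 of 44 (median -0.24), with Hist1h3b at -0.78. At an adjusted p below 0.01, 2 histone genes were lower and 0 higher. Inhibitors of the cell cycle fell in 10 and rose in 2 of 19, among them Cdkn2d (-1.81), Ccng2 (-1.88) and Cdkn1b (-1.04).

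DNA repair genes rose in 21 of 39 (12 at an adjusted p below 0.01) with none lower (median 0.43). The subunits of the Ku dimer, which binds broken DNA ends, rose unequally: Xrcc5 (Ku80) was at 2.82 (SE 0.20), from an implied 258 to 1826 normalized counts, and Xrcc6 (Ku70) at 1.01 (SE 0.23) in the authors' deposited table. Targets of p53 were split, 8 higher and 7 lower of 31 (median 0.17). Zmat3 (1.72, SE 0.25) and Aen (0.99) rose, Xpc (-2.01, SE 0.15), Apaf1 (-0.86) and Pmaip1 (-1.32, SE 0.41) fell, and Mdm2 (-0.25, adjusted p = 0.107) was not called. Of 33 BCL2 family, caspase and death receptor genes 13 fell and 2 rose (median -0.30), with the caspase inhibitor Cflar at -1.14, Bid at -0.96, and Bcl2 itself at -1.14 with an SE of 0.51 and not called.

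Interferon-stimulated genes rose in 9 and fell in 11 of 42 (median 0.08). Among the higher ones were the RNA sensor Ifih1 at 1.12 (SE 0.18), Oasl1 at 1.34 (SE 0.27) and the immunity-related GTPase Iigp1 at 2.66 (SE 0.52) in the authors' deposited table. Bst2 (-1.31), Psmb8 of the immunoproteasome (-1.11), Trim30a (-1.48) and Sp100 (-1.18) were lower, and the factor Irf7 (-0.36) was not called. Among RAS and MAPK genes 5 rose and 7 fell of 31 (median 0.17). The feedback genes Spry2 (-1.93) and Dusp6 (-1.51) and the kinase Mapk3 (-1.33) fell, and the exchange factor Rasgrp1 rose (2.58, SE 0.35).

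Splicing factors around U2af1 rose in part. Of 22 genes of U2AF, its relatives and the branch site machinery, U2af1 included, 9 were higher and none lower (median 0.39). In the authors' deposited table U2af2 was at 0.74 (SE 0.18), Prpf31 at 1.09 (SE 0.21), Phf5a and Sf3b4 of the SF3B complex at 1.03 (SE 0.20) and 0.81 (SE 0.20), and Srsf2 at 0.51 (SE 0.15). Sf3b1 (0.13), the branch point protein Sf1 (0.16) and Luc7l2 (-0.01) were not called. Among 23 hosts of small nucleolar RNAs and known targets of nonsense-mediated decay, 14 were higher and 1 lower (median 0.74), with Snhg4 at 1.77 (SE 0.26), Snhg3 at 1.76 (SE 0.22), Snhg12 at 1.47 and Snhg5 at 1.36. The decay factors Smg1 (-0.03) and Upf2 (-0.01) were not called, and Smg6 was at -0.39 (SE 0.15).

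Outside the lists, the firmest changes by Wald statistic in the authors' deposited table were falls of Tifab (-6.93, SE 0.23), a regulator of innate immune signalling, of BC035044 (-5.53, SE 0.21), Ppfia4 (-6.10, SE 0.23) and the exchange factor Fgd2 (-5.04, SE 0.20), and rises of the sodium pump subunit Atp1b2 (4.02, SE 0.23), of Apol8 (5.19, SE 0.30) and of the metallothioneins Mt2 (4.72, SE 0.28) and Mt1 (3.63, SE 0.26). The metallothioneins resemble each other closely. The heparanase Hpse was at -4.97 (SE 0.25), the complement regulator properdin (Cfp) at -2.86 (SE 0.17) and the histone variant gene H2afy at -2.48 (SE 0.14). Among the rises, the exporter Abcg2 was at 2.22 (SE 0.18), the copper transporter Atp7b at 2.93 (SE 0.23), the ubiquitin ligase Rnf128 at 3.68 (SE 0.25) and lamin A (Lmna) at 2.83 (SE 0.23).

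Calls were also counted by the structure of the gene in GENCODE M21, which held 97.8% of the tested symbols. Of 588 protein-coding genes whose longest transcript has 1 exon, and so no intron to splice, 18.7% were higher and 28.2% lower, with a median log2 fold change of -0.10. Of 1670 with 20 or more exons, 27.9% were higher and 26.3% lower, with a median of 0.02. The classes between them lay in order for the share called higher, at 24.0% for 2 to 4 exons, 24.7% for 5 to 9 and 26.5% for 10 to 19. Over these same classes the share called lower climbed too, at 25.6%, 26.6% and 28.8%, and the medians were -0.01, -0.02 and -0.01. Without histone genes the share of 1-exon genes called higher was 19.6%. The median SE was 0.22 for 1 exon and 0.18 for 20 or more exons, and its part in the shares was not tested. By chromosome, chromosome 19 had the largest share called, 57.3%, with 33.5% lower, and chromosome 9 the smallest of the autosomes, 47.9%. Chromosome 7 had 19.1% higher and 31.6% lower.

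These effects were set beside those in LSK cells, which share no library with them and were normalized separately. All LSK libraries carry the source name BMT and all LinNeg libraries BM, so the cell population and whatever BMT stands for cannot be told apart in any difference below. The gap between both fold changes, on the log2 scale, divided by its combined SE (two-sided normal test, Benjamini-Hochberg adjustment) passed an adjusted p of 0.05 for 3854 of the 10425 genes that reached the minimum mean of 100 in each table (37.0%). The effect was more positive in LinNeg for 1516 and more negative for 2338. With both sets of fold changes centred on their median gene these became 1845 and 1903. SEs were larger in LinNeg, with a median of 0.20 against 0.09 in LSK. Xist and the Y-linked genes also moved differently: in the deposited LSK table Ddx3y was at -9.21 (SE 0.38) and in LinNeg at -0.79 (SE 1.64). The 5 sex-linked markers compared had a median of -9.06 in LSK, so their levels ran with the genotype label there. Sex and genotype label therefore cannot be told apart in LSK, nor in any difference from LSK below. The part of sex in the differences was not tested.

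**Figure D4:**
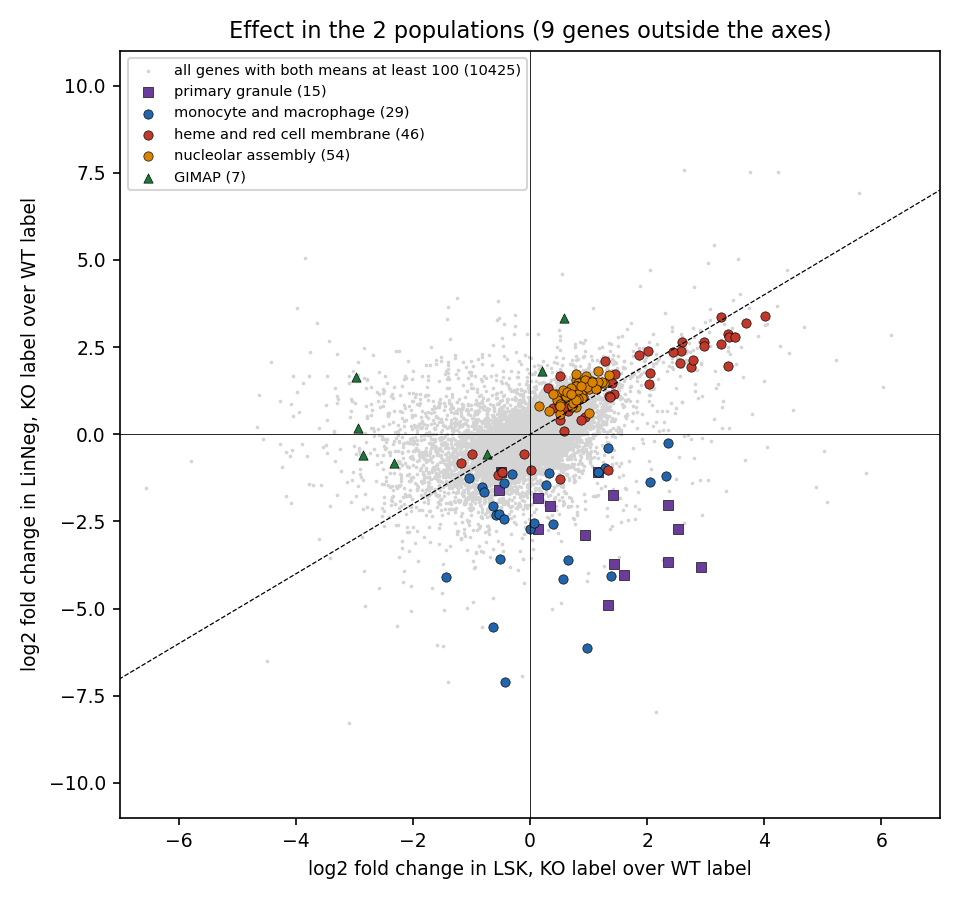
Deposited log2 fold changes (KO label over WT label) in LinNeg (vertical) and LSK (horizontal) of the 10425 genes that reached the minimum mean in each table; the dashed line marks equal effects, and 9 genes fall outside the axes. Primary granule genes (purple squares) lie below 0 in LinNeg and mostly above 0 in LSK, while nucleolar genes (orange) and most heme and membrane genes (red) lie above 0 in each.

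All 15 primary granule genes were more negative in LinNeg than in LSK by the test of the difference, and their median was -2.71 in LinNeg and 1.33 in LSK. In the authors' deposited tables Mpo was at -4.90 (SE 0.25) in LinNeg and 1.33 (SE 0.08) in LSK, a difference of -6.24 (SE 0.26, adjusted p = 4.11e-119). Monocyte and macrophage genes were more negative in LinNeg in 26 of 29 genes and more positive in none, all 9 oxidase genes were more negative, and so were 26 of 31 lysosome genes. The antigen Ly6c2, a marker of monocytes and granulocyte progenitors, was at -3.60 (SE 0.18) in LinNeg and 2.27 (SE 0.14) in LSK. Basophil genes were more negative in 9 of the 12 that could be compared.

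Red cell lists varied in how many of their genes differed. None of 18 heme genes was more positive in LinNeg and 3 were more negative, with medians of 1.43 in LinNeg and 1.42 in LSK. Of 28 membrane genes 3 were more positive and 7 more negative (medians 1.93 and 1.32). Of 33 late erythroid genes 13 were more positive and 5 more negative (medians 1.82 and 1.01), and of 22 erythroid transcription factors 5 and 7. Klf1 was at 2.98 (SE 0.24) in LinNeg and 2.90 (SE 0.26) in LSK in the authors' deposited tables, and Gata1 at 1.42 (SE 0.20) and 1.89 (SE 0.11). The difference for Klf1 was 0.08 with an SE of 0.36 (adjusted p = 0.898), and that for Gata1 was -0.47 with an SE of 0.23 (adjusted p = 0.11). A difference that misses the threshold does not show that the effects are equal. In the erythropoietin signalling list 10 of 19 were more positive in LinNeg and 3 more negative, with Cish at 3.35 (SE 0.29) in LinNeg and -0.53 (SE 0.19) in LSK, Socs2 at 2.86 (SE 0.30) and -0.28 (SE 0.25), and Bcl2l1 at 1.25 (SE 0.20) and -0.33 (SE 0.10). The factors Sox6 (2.20 in LinNeg, -1.28 in LSK) and Zfpm1 (2.51 and 0.46) also had more positive effects in LinNeg.

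No tRNA synthetase gene differed between the populations of 24 compared, and of 54 nucleolar genes 19 were more positive in LinNeg and none more negative (medians 1.18 and 0.79). The other 3 lists named here were lower relative to LSK: 28 of 75 cytosolic ribosomal protein genes, 21 of 50 oxidative phosphorylation genes and 36 of 44 replication-dependent histones had more negative effects in LinNeg, with medians of 0.09, 0.30 and -0.24 in LinNeg and of 0.54, 0.83 and 0.53 in LSK. The endoplasmic reticulum chaperones Hspa5 and Hsp90b1 were at -0.52 (SE 0.21) and -0.99 (SE 0.15) in LinNeg and at 1.03 (SE 0.06) and 0.82 (SE 0.05) in LSK in the authors' deposited tables. Xrcc5 was at 2.82 (SE 0.20) in LinNeg and 0.51 (SE 0.07) in LSK. Of 7 GIMAP genes compared, 6 had more positive effects in LinNeg, with Gimap8 at 1.65 (SE 0.32) against -2.98 (SE 0.19).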

How the data were processed

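RNA was sequenced from 6 LinNeg and 6 LSK libraries, 3 for each genotype label. The submitters' processing notes name HISAT2, SAMtools 1.10, StringTie, DESeq2 and the build mm10. For the counting step, program and annotation were not given in the sources used here. The authors deposited 1 table of comparisons per population. Per the file headers, the first value is the authors' mean of normalized counts, a linear signal. The authors' log2 fold change and its SE follow, then their deposited Wald statistic, a score. The last are the deposited p-value and its adjusted form. Depth per library is therefore unknown, and the authors' splicing tables were not analysed here.

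Of 24542 rows, 5 that name no gene and 4 with repeated symbols were left out. The row for reads outside any feature held 38.0% of all summed means. Fold changes, deposited to 2 decimals, were restored by multiplying statistic and SE. A call is an adjusted p from the authors' DESeq2 below 0.05 at a mean of at least 100. The 56 gene lists hold 1378 tested genes and are described by counts and medians. Members and lists were chosen with earlier results of these data known. Named genes are U2af1, up to 6 called members per list in its main direction (largest Wald statistics), up to 3 in the other and up to 3 not called (highest means), and the 20 largest statistics of each sign in no list. The test of differences between populations was run on simulated fold changes with normal noise of the deposited SEs, which is what the test assumes. That run checks the calculation only, and not outlying libraries or the separate normalization. Python 3.11.15 was used with matplotlib 3.10.9, scipy 1.17.1, pandas 2.3.3 and numpy 2.4.6.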

Additional observations from a re-analysis of the deposited data

Results flagged for a closer look

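The effect of the KO label differed between LinNeg and LSK, with calls in opposite directions in both deposited tables and a called difference, for 52 of the 542 genes named by the rule, 38 of them lower in LinNeg and higher in LSK. Among all 10425 genes compared, 474 were lower in LinNeg and higher in LSK in this way, and 262 the reverse. The named genes were picked by their LinNeg statistics, so their count is not a result about them. Of the 52, the 12 with the largest differences (LinNeg minus LSK, log2) are given here. Genes of granulocytes and monocytes were lower in LinNeg and higher in LSK: the pyrin gene Mefv differed by -10.11, F13a1 by -7.08, Mpo by -6.24, haptoglobin (Hp) by -6.01, Ly6c2 by -5.87, Cx3cr1 by -5.44, Fcgr3 by -5.27, Prtn3 by -5.17 and Pglyrp1 by -4.12. The p53 target Pmaip1, whose product promotes cell death, differed by -4.36. In the other direction the lipase Abhd6 differed by 5.05 and the lymphocyte GTPase Gimap8 by 4.62.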

How the results depend on the processing

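No leave-one-out, replicate block or edgeR TMM fit was run, since the table holds no values per library. No paired analysis was possible because the deposited columns carry no replicate. The count of 6003 calls was 4833 at an adjusted p below 0.01 and 6691 below 0.1, and lay between 4586 and 7088 with other minimum means; recentring on the median gene (-0.02) gave 6163. The number changed by at least 2-fold depended on how it was tested: a Wald test against a fold of 2 called 1154 genes, 525 higher and 629 lower, in place of 2958, 1515 and 1443, since it asks for a fold firmly past 2. Calls at SEs of up to 0.5, a limit chosen after seeing the data, kept 844 of 885 list members, and no seminal vesicle or sex-linked gene could then be tested. In 221 of 224 pairs of list and setting the direction with more calls was that given; the exceptions are those 2 lists and the globins, which have 2 tested members when no minimum mean is set. Of the 542 named genes 21 lost their call at an adjusted p below 0.01 and no called one changed sign under recentring. Called differences from LSK numbered 3748 after recentring both tables and 2940 at an adjusted p below 0.01.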

Other observations

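After depletion of ribosomal RNA, its precursor Rn45s still made up 13.3% of the means summed over gene rows, and its log2 fold change in the authors' deposited table was 0.39 (SE 0.23, adjusted p = 0.164). Rn45s, Actb and Myh9 lie outside the naming rule and were chosen after their values were seen. Actb, often used as a reference gene, was the third most abundant transcript and was lower under the KO label, with an implied 297816 normalized counts under the WT label and 148836 under the KO label (adjusted p = 1.15e-13), and non-muscle myosin Myh9 was at -1.39 (SE 0.16). Col1a1 and Col1a2, collagens of stromal cells, had means of 94938 and 49657 with SEs of 1.04 and 0.99 and were not called, while the niche genes Cxcl12 (-4.11, SE 0.31), Kitl (-2.60, SE 0.40) and Lepr (-2.47, SE 0.45) were called lower. The list they belong to was mixed. Of 23 tested endothelial and stromal genes 4 rose, 8 fell and 11 were not called (median -0.67).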
